A study of Homo sapiens with 3 samples.

Results

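STAT proteins are latent transcription factors that carry cytokine signals from the cell surface to the nucleus. A JAK kinase bound to an occupied receptor phosphorylates a STAT on a tyrosine, the protein pairs with another STAT through its SH2 domain, and the pair binds DNA. STAT2 acts with IRF9 and another STAT in ISGF3, the complex that answers type I and type III interferons, while STAT3 answers cytokines that use the gp130 receptor chain. STAT4 answers IL-12 in lymphocytes, STAT5A and STAT5B answer growth hormone, prolactin and relatives of IL-2, and STAT6 answers IL-4 and IL-13. Described here are 6 genes, STAT2, STAT3, STAT4, STAT5A, STAT5B and STAT6, taken by name from the 60605 genes of the deposited table, in all 3 libraries.

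All 3 libraries were made from RCC4 cells, a line of human clear cell renal cancer without functional VHL protein that had been transduced with a lentiviral vector for Cas9. The cells of each biological replicate filled 3 flasks and were exposed to IFN-gamma at 1000 U/mL and TNF at 25 ng/mL for 24 h before poly(A) RNA was sequenced. Every value is therefore a level in treated cells of 1 line. Untreated cells were not analysed here, so no value is a response to the cytokines.

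Replicates 1, 2 and 3 had 29199806, 26264283 and 33458691 reads over all genes. Levels are given as CPM, counts scaled to a common library size with TMM, and between genes as RPKM, the CPM per kilobase of the gene's merged exons. A gene counted as detected at 1 CPM or more in every library, a threshold that 10201 of 19861 protein-coding genes passed. All 7 renal carcinoma epithelial markers were detected, from PAX8 at 1.46 ± 0.0731 RPKM to KRT8 at 147 ± 30.9 RPKM (SD, n = 3). Of the exons of PAX8, 95.7% lie inside other genes' spans. Of 7 blood cell markers 1 was detected, ITGAM at 0.256 ± 0.0457 RPKM, and PTPRC, CD3E, CD2 and LYZ were listed at 0 reads in each library. The summed level of the blood cell markers ran from 0.263 to 0.450 RPKM over the libraries. Replicate 1 stood apart from the other libraries along transcript GC content, as given for the STAT genes below.

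STAT2, STAT6 and STAT3 were expressed at nearly the same high level, STAT5B was lower, and STAT5A and STAT4 were close to 0. Of the 6 genes 4 were detected, beside 51.4% of all protein-coding genes and 18.6% of all genes in the table. STAT2, STAT6 and STAT3 lay at percentiles 91.3, 90.8 and 89.99 of the detected protein-coding genes by RPKM, and STAT5B lay at percentile 64.4. The median of detected protein-coding genes was 6.09 RPKM. Together the 6 genes took 0.106% ± 0.00587 of the reads (SD, n = 3).

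**Figure D1:**
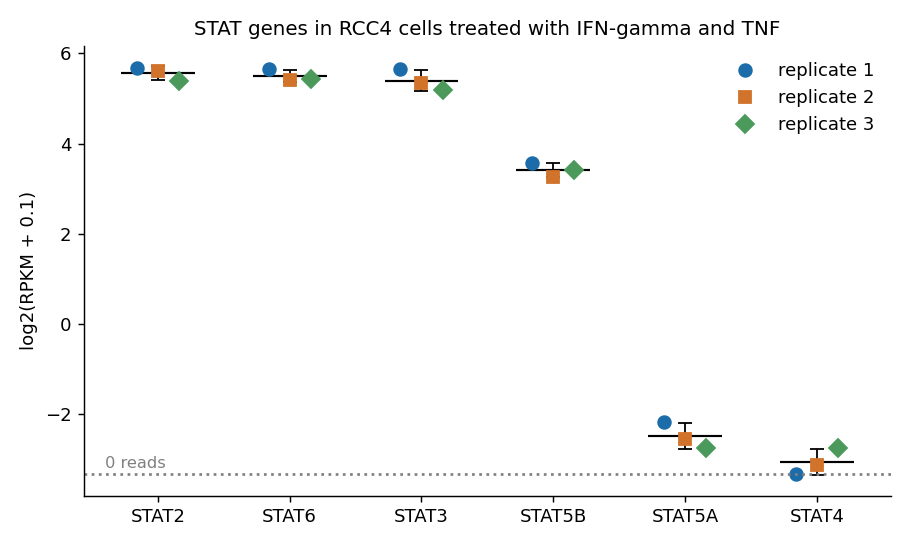
Level of each STAT gene in each library, as log2(RPKM + 0.1) on the vertical axis. Points are replicates, and the horizontal line and bar are their mean and SD. STAT2, STAT6 and STAT3 overlap, STAT5B lies below them in every library, and STAT5A and STAT4 lie near the dotted line that marks 0 reads.

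STAT2, the partner of IRF9 in ISGF3, lies on chromosome 12 (GRCh38, 56341597 to 56360155, minus strand). It had 8509, 8028 and 8852 reads in replicates 1, 2 and 3, which were 51.3, 48.4 and 41.7 RPKM. Its mean was 47.1 ± 4.95 RPKM (SD, n = 3). Replicate 3 had the most reads but the lowest level, since it was the deepest library.

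STAT6, the factor of IL-4 and IL-13 signalling, lies on the same chromosome (57095408 to 57132139, minus strand). It had 9918, 8399 and 10990 reads, which were 50.05, 42.4 and 43.3 RPKM, with a mean of 45.2 ± 4.19 RPKM. Its ends lie inside the neighbours NAB2 and LRP1 on the opposite strand, which together span 4.33% of its exons. The strand setting of the counting is not given, so reads of STAT6 and of these neighbours cannot be told apart there. With only the exons outside those spans, its level was 47.3 RPKM.

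STAT3, which carries signals from receptors of the IL-6 family, lies on chromosome 17 (42313324 to 42388568, minus strand). It had 12057, 9686 and 11168 reads, the most of the 6 genes in every library, and 50.4, 40.5 and 36.4 RPKM. The mean was 42.4 ± 7.18 RPKM, with the widest spread of the 4 detected STAT genes, a coefficient of variation of 16.9%. The median over detected protein-coding genes was 16.4%. For STAT2, STAT5B and STAT6 the coefficient was 10.5%, 11.02% and 9.27%, where counting error alone would give 1.54%, 3.14% and 1.43% if every 2 reads are mates of 1 fragment.

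The levels of STAT2, STAT6 and STAT3 did not differ beyond the spread over libraries. A ratio formed within each library counted as past the spread when its sign was the same in all 3 libraries and its mean exceeded 2 SD on the log2 scale. No p is given, because an exact two-sided sign-flip test over 3 libraries cannot go below 0.25. The log2 ratio STAT2/STAT3 was 0.03, 0.26 and 0.19 in replicates 1, 2 and 3, a mean of 0.16 ± 0.12. STAT2/STAT6 was 0.04, 0.19 and -0.06 (mean 0.06 ± 0.12), and STAT3/STAT6 was 0.01, -0.07 and -0.25 (mean -0.10 ± 0.13). The order changed from library to library: STAT2 was highest in replicates 1 and 2 and STAT6 in replicate 3.

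The order of these 3 genes also depended on the length by which reads were divided. The merged exons measure 8812 bases for STAT3, 7298 for STAT6 and 6109 for STAT2. Without length scaling the order was STAT3, STAT6 and STAT2, at 374 ± 63.3, 330 ± 30.6 and 288 ± 30.2 CPM, and the log2 ratio STAT2/STAT3 was -0.37 and past the spread. By the longest coding transcript, 5047, 4034 and 3259 bases for STAT3, STAT6 and STAT2, the ratio was 0.26 and past the spread in the other direction. Without replicate 1 it also passed, at 0.22, but that call rests on fewer libraries than the rule names. Which isoforms the cells used is not resolved in a table of whole genes, so STAT2 and STAT3 cannot be ranked.

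**Figure D2:**
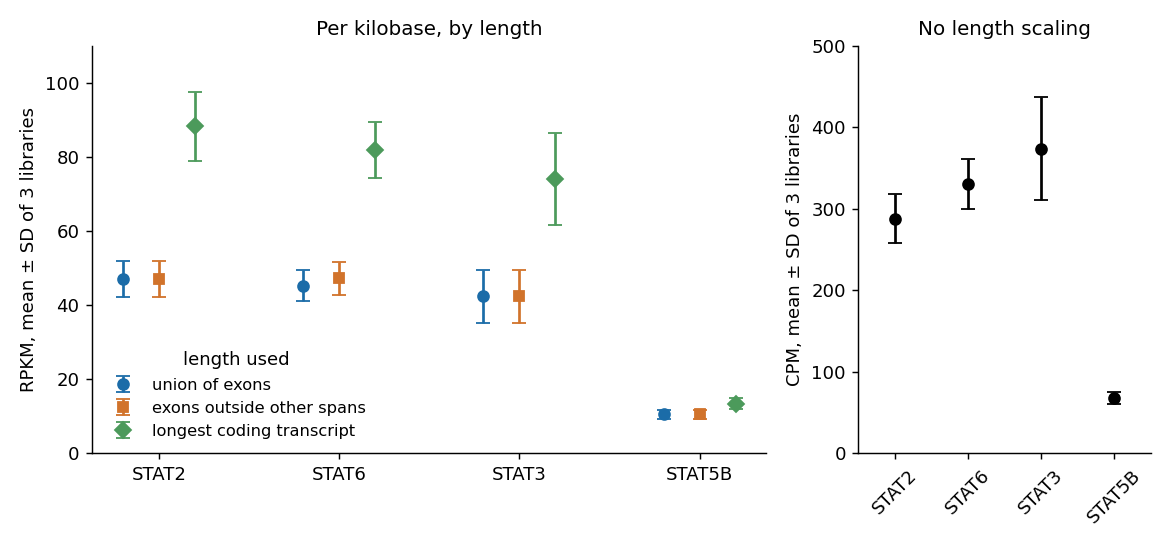
The left panel plots RPKM of STAT2, STAT6, STAT3 and STAT5B with the length of all merged exons, of exons outside other genes' spans, and of the longest coding transcript. The right panel plots CPM, with no length scaling, and points and bars are means and SD of 3 libraries. STAT3 is the highest of the 4 in CPM and the third in RPKM at each length, and STAT5B is lowest throughout.

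STAT5B, which carries growth hormone signals in liver and other tissues, lies on chromosome 17 (42199168 to 42276707, minus strand). It had 2061, 1654 and 2357 reads, which were 11.8, 9.44 and 10.5 RPKM, with a mean of 10.6 ± 1.17 RPKM. In every library STAT5B lay below STAT2, STAT3 and STAT6. The log2 ratio STAT2/STAT5B was 2.14 ± 0.19, or 4.42-fold, and STAT3/STAT5B was 1.99 ± 0.18, or 3.96-fold. STAT5B/STAT6 was -2.09 ± 0.06. All 3 ratios were past the spread, and they remained so under each alternative tried.

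STAT5A, the factor of prolactin signalling in the mammary gland, lies beside STAT5B on the same chromosome (42287547 to 42311943, plus strand), between it and STAT3. It had 19, 11 and 10 reads, or 0.122, 0.0704 and 0.0500 RPKM in replicates 1, 2 and 3. Summed over libraries, the level of STAT5B per kilobase was 135-fold that of STAT5A, with a Poisson interval (95%) of 87.7 to 222 that takes every 2 reads of STAT5A as 1 fragment and covers counting error only. On the scale of log2(RPKM + 0.1), which understates the distance, STAT5A/STAT5B was -5.90 ± 0.22 and past the spread. With a pseudocount of 1 it was -3.42.

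STAT5A and STAT5B are close copies, so the coding sequences of their longest coding transcripts in GENCODE were aligned to see how far reads could be confused between them. They were identical at 2087 of 2345 aligned bases (89.0%), while every other pair of the 6 genes was between 57.0% and 65.2% identical. The longest run without a difference was 429 bases. A stretch of 90 bases was the same in both genes, so a read wholly inside it has by itself no unique place (chr17:42299764-42299853, plus strand, in STAT5A and chr17:42219740-42219829, minus strand, in STAT5B):

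STAT5A and STAT5B: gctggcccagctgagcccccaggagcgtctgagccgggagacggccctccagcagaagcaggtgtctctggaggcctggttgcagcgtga

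The least alike 90 bases within 1 exon differ at 27 positions, in capitals, and a read from there can be placed (chr17:42308178-42308267, plus strand, in STAT5A and chr17:42207639-42207728, minus strand, in STAT5B):

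STAT5A: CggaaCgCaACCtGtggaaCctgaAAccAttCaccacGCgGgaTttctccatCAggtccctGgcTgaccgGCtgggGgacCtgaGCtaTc

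STAT5B: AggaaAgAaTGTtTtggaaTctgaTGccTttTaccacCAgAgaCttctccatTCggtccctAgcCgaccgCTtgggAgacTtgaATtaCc

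Over all annotated transcripts, 8.61% of the distinct 50-base stretches of STAT5A also occur in STAT5B, and 6.14% of its 100-base stretches do. For STAT5B the shares found in STAT5A were 7.81% and 5.67%. Most of either gene can therefore be told from the other by sequence. Neither has exons inside another gene's span in GENCODE 29, but the table lists all 6 STAT genes under later versions of their identifiers, so the authors' annotation of them may differ. Whether reads of STAT5A were lost in counting was not tested.

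STAT4, known mainly from T and NK cells, lies on chromosome 2 (191029576 to 191151596, minus strand). It had 0, 2 and 8 reads, which were 0, 0.0154 and 0.0481 RPKM. A count of 0 in replicate 1 allows up to 3 fragments, which at 2 reads each is 0.0462 RPKM. Over all libraries its 10 reads gave 0.0235 RPKM, with a Poisson interval on fragments of 0.0076 to 0.0547 RPKM. STAT5A gave 0.0780 RPKM from 40 reads, with an interval of 0.0477 to 0.120 RPKM that overlaps that of STAT4. Such an overlap is not a test of a difference. By RPKM STAT5A lay above STAT4 in every library, though in replicate 3 only by 0.0500 against 0.0481. The ratio of these genes was not used, because STAT4 had no read in replicate 1 and under 10 in the others. Their order was therefore not tested and is not settled. Of the exons of STAT4, 14.8% lie inside a gene on the opposite strand.

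The 4 detected STAT genes were each highest in replicate 1 by CPM, as were 50.1% of detected protein-coding genes. In log2, replicate 1 exceeded the mean of replicates 2 and 3 by 0.39 for STAT3, 0.24 for STAT5B, 0.22 for STAT6 and 0.19 for STAT2. The transcripts of these genes have GC contents of 50.4%, 51.8%, 56.1% and 51.6%, and when detected protein-coding genes were split into 20 bins by GC content, the bins of these genes had medians of 0.24 for STAT2, STAT3 and STAT5B and 0.34 for STAT6. STAT3 lay just above the middle 50% of its bin, which ended at 0.36, and the other members lay within theirs.

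**Figure D3:**
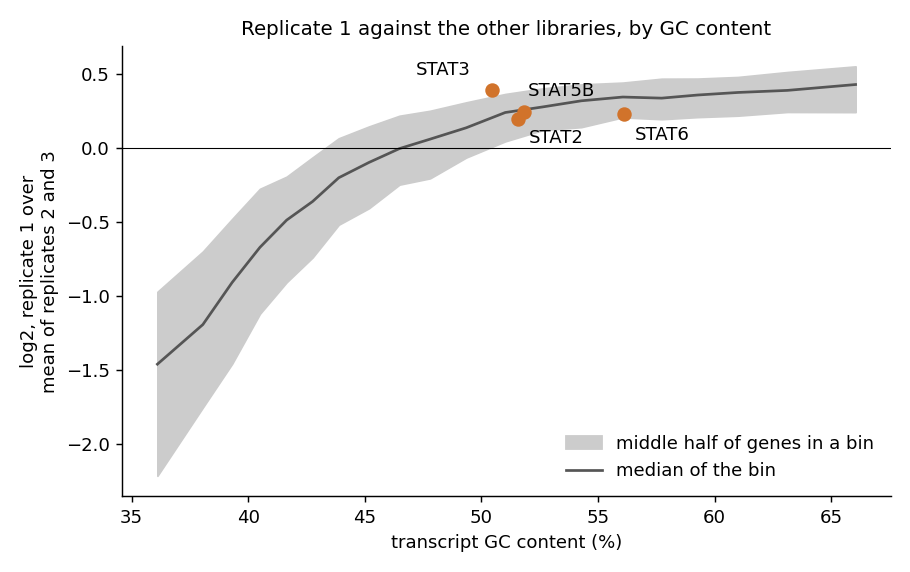
Log2 of replicate 1 over the mean of replicates 2 and 3 against transcript GC content in percent. The line is the median and the band the middle 50% of detected protein-coding genes in 20 GC bins, and orange points are the 4 detected STAT genes. The median runs from -1.46 in the lowest bin to 0.43 in the highest, and STAT3, at 0.39, is the point above the band.

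The genes that act before and after the STAT proteins were read as lists, each with its count detected beside the 51.4% of all protein-coding genes. A gene with at least 80% of its exons inside other genes' spans is called covered: 8.69% of such protein-coding genes were detected, against 52.4% of those with no overlap. A covered gene at 0 is given only as listed. Spans are those of the annotation used here, and the authors' annotation may differ. Whether reads of a gene at 0 outside these spans were lost in counting was not tested.

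Of the JAK kinases, which phosphorylate the STAT proteins, 3 of 4 were detected. JAK1, used by most of these receptors, stood at 52.7 ± 2.79 RPKM, close to STAT2. TYK2, the kinase of the IFN-alpha and IL-12 receptors, stood at 31.98 ± 4.43 RPKM. JAK2 stood at 4.44 ± 2.65 RPKM and had 236, 933 and 1359 reads, far fewer in replicate 1. In log2, replicate 1 lay at -2.07 from the mean of the other libraries, where the median of its GC bin was -0.91. Of the exons of JAK2, 32.1% lie inside other spans. JAK3, known from blood cells, was listed at 0 reads in each library.

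Receptors for each STAT differed in how many were detected. For STAT6, IL4R and IL13RA1, which form the IL-4 receptor of non-blood cells, stood at 21.8 ± 2.76 and 14.7 ± 1.10 RPKM, and the decoy receptor IL13RA2 had 0, 0 and 2 reads. For STAT3, 7 of 10 were detected, led by the oncostatin M receptor OSMR at 18.6 ± 1.56 RPKM. IL6ST, the shared gp130 chain, stood at 4.44 ± 3.16 RPKM with 209, 1455 and 2172 reads, and the IL-6 binding chain IL6R at 0.492 ± 0.0506 RPKM. Of the exons of IL6ST, 63.3% lie inside other spans. Its level was 0.828, 5.76 and 6.72 RPKM in replicates 1, 2 and 3. Its transcript GC content of 36.6% falls in the lowest GC bin. In log2, replicate 1 of IL6ST lay at -2.91 from the mean of the other libraries. The median of that bin was -1.46 and its lower quartile -2.21, so IL6ST lay below both. For STAT5, 2 of 12 were detected, the IL-7 receptor IL7R at 30.1 ± 0.855 RPKM and the erythropoietin receptor EPOR at 4.63 ± 0.383 RPKM. GHR and PRLR, the receptors of growth hormone and prolactin, had at most 4 reads in a library, and IL2RG, the common gamma chain and a covered gene, was listed at 0. For STAT4, 1 of 3 was detected, IL12RB1 at 0.468 ± 0.0704 RPKM, while IL12RB2, the chain that binds STAT4, had 8, 16 and 12 reads.

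Among interferon receptor chains, 4 of 6 were detected. IFNGR2 and IFNGR1, the chains of the IFN-gamma receptor, stood at 8.27 ± 0.980 and 6.40 ± 2.24 RPKM. IFNGR1 had 340, 687 and 874 reads, and 47.4% of the exons of IFNGR2 lie inside other spans. IFNAR1, a chain of the type I interferon receptor, stood at 7.88 ± 1.57 RPKM, and IFNLR1, of the type III receptor, at 1.14 ± 0.163 RPKM. Their partners IFNAR2, a covered gene that anchors STAT2, and IL10RB were below 1 CPM, with at most 6 reads in a library, and 54.3% of the exons of IL10RB lie inside other spans.

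Inhibitors of the pathway were mostly detected, 15 of 17, with a median of 3.61 RPKM against 0.482 RPKM for all protein-coding genes. SOCS3, which blocks gp130 and JAK activity, was highest at 97.6 ± 17.2 RPKM, above STAT3 itself. The phosphatases PTPN1 and PTPN11 stood at 58.6 ± 7.49 and 17.3 ± 6.30 RPKM, and PIAS4, a SUMO ligase, at 21.2 ± 4.84 RPKM. USP18, which acts at IFNAR2 together with STAT2, stood at 10.4 ± 1.61 RPKM. CISH and SOCS2, inhibitors that STAT5 induces, stood at 3.52 ± 0.195 and 1.62 ± 0.125 RPKM. The covered genes SOCS1 and SOCS5 were listed at 0.

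Of the partners and coactivators, 6 of 7 were detected. NMI, a protein that binds STAT factors, stood at 29.9 ± 7.75 RPKM, and the acetyltransferases CREBBP and EP300 at 9.64 ± 1.54 and 4.74 ± 0.102 RPKM. IRF9, the partner of STAT2, had 2, 6 and 9 reads with all of its exons inside other spans, so no ratio of STAT2 to IRF9 was formed.

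**Figure D4:**
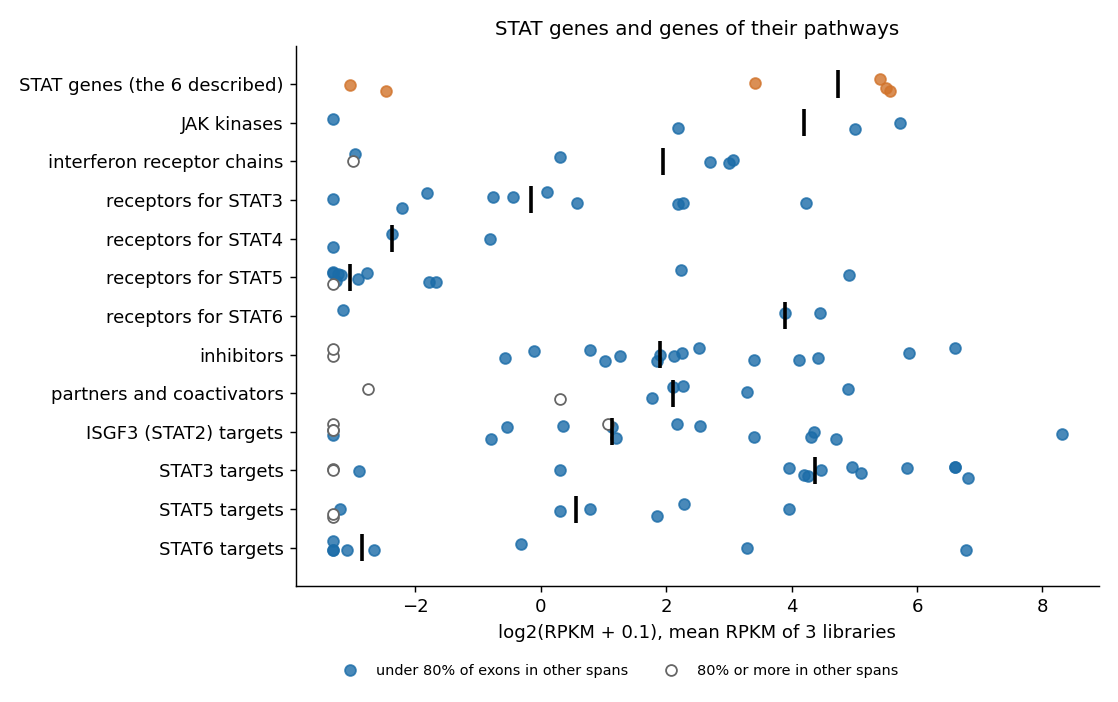
Mean level of each gene over 3 libraries, as log2(RPKM + 0.1) on the horizontal axis, for the 6 STAT genes and 12 lists of their pathways. Each point is a gene, open points are genes with at least 80% of their exons inside other spans, and the vertical bar is the list median. STAT3 targets have the highest median of the 12 lists at 20.6 RPKM, and receptors for STAT5 the lowest at 0.0213 RPKM.

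Lists of known targets, named for the factor that is known to bind them, also differed. Of STAT3 targets 11 of 14 were detected, with a median of 20.6 RPKM, led by the survival gene BCL2L1 at 112 ± 15.4 RPKM, SOCS3, and MCL1 at 97.0 ± 11.4 RPKM. FOS had 4, 2 and 4 reads, and the covered genes JUNB and TIMP1 were listed at 0. Of ISGF3 targets 13 of 17 were detected with a median of 2.09 RPKM, from the ubiquitin-like ISG15 at 318 ± 48.5 RPKM to the GTPase MX2 at 0.478 ± 0.0827 RPKM. IFIT1, IFIT2 and IFIT3, all covered, were listed at 0. The RNA sensor DDX58 was also listed at 0, though it lies outside other spans in the annotation used here. Whether its reads were lost in counting was not tested.

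Of STAT5 targets 5 of 8 were detected, led by the kinase PIM1 at 15.5 ± 3.07 RPKM, which the STAT3 list also holds, and PIM2 at 4.76 ± 0.702 RPKM. Of STAT6 targets 2 of 8 were detected, the transglutaminase TGM2 at 109 ± 16.2 RPKM and the monoamine oxidase MAOA at 9.63 ± 1.01 RPKM. The chemokine CCL26 had 20, 14 and 8 reads, and CCL24, ALOX15 and POSTN were listed at 0 reads in each library outside other spans. Many of these targets answer to other factors too, so a level is not a measure of STAT activity.

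The genes nearest to each detected STAT gene were sought among 117 genes of these lists and of the blood cell and renal carcinoma marker lists. Nearness was the root mean square difference of log2(RPKM + 0.1) over the 3 libraries. CA9, a carbonic anhydrase from the renal carcinoma markers, was nearest to STAT2, STAT3 and STAT6, at distances of 0.24, 0.27 and 0.23. JAK1 was next for STAT2 and STAT6, at 0.25 and 0.28, and CCND1, a cyclin, for STAT3 at 0.34. USP18 was nearest to STAT5B at 0.13, followed by CREBBP at 0.23. With 3 libraries of 1 condition these distances reflect mainly a like level.

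The promoters of the STAT genes were searched for the sequences that STAT complexes bind, from 250 bases before to 50 bases after each of 9 RefSeq starts (GRCh38.p14). TTCNNNGAA, the GAS element bound by most STAT dimers, was in no window of the 6 genes, beside 9.38% of 27305 genes. GAAANNGAAA, a core of the element bound by ISGF3, searched on both strands, was also in none, beside 4.38% of genes. TTCNNNNGAA, the spacing that STAT6 prefers, was in 1 of 3 windows of STAT5A, beginning 229 bases upstream of the start, and in 7.80% of all genes. The match stands in capitals in its surroundings (chr17:42287195-42287234, plus strand), as the only one found:

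STAT5A upstream: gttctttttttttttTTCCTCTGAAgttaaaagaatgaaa

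The absence of these letters from so short a window says nothing of binding elsewhere.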

How the data were processed

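Each deposited value is a signal: by the values themselves, the authors scaled each library's counts by 1 size factor. The submitters' processing notes name featureCounts 2.0.0, HISAT2 2.1.0, cutadapt 1.18 and FastQC with build hg38. Annotation release and strand setting: not given in the sources used here. All nonzero values (100%) were whole multiples of 1 read within 0.01, so reads were recovered and used in place of the planned counts. In replicate 1, 1621 genes had 2 reads and 269 had 1, a pattern that counting both mates gives. Poisson intervals, counting errors and the floor of 3 therefore take 2 reads as 1 fragment, and cover counting error only.

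TMM scaling used edgeR 4.0.16 in R 4.3.3. Lengths, spans and GC content came from GENCODE 29, to which 96.3% of identifiers matched, holding 99.9% of reads. All libraries form 1 group, so no contrast was tested. Ratios took a pseudocount of 0.1 RPKM and were used only for genes with a read in every library and 10 reads in 1 or more. The rule named the 6 genes, the 4 highest and 3 lowest of each list, and the 3 nearest genes; some that it names are not printed. Alternatives were DESeq2 1.42.0 size factors, other lengths, pseudocounts and thresholds, a GC correction and leaving out each library. Scaling and GC correction were tested on simulated data. Members, lists and rules were chosen with earlier results of these data known.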

Additional observations from a re-analysis of the deposited data

How the results depend on the processing

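Of the 6 STAT genes, 4 were detected under each scaling and without any 1 library, and 5, with STAT5A, at 0.1 CPM or at 10 reads. The ratio STAT5A/STAT5B kept its direction and stayed past the spread in every setting tried, at -6.01 to -5.76 on the log2 scale with 1 library left out. STAT2/STAT3 was 0.11 to 0.22 with 1 library left out, and past the spread without replicate 1 (0.22) and by the longest transcript (0.26). A call with 1 library left out rests on fewer libraries than the rule names. Without length scaling it turned to -0.37, past the spread in the other direction. Without length scaling STAT2/STAT6 was -0.20 and STAT3/STAT6 0.17, both against their main direction. STAT2/STAT6 was also -0.0067 with exons outside other spans and ran from -0.010 to 0.11 with 1 library left out, so its sign is not settled. The scaling by the authors' own size factors was chosen after seeing the data, and neither it nor DESeq2 size factors changed a ratio's direction or call. By the longest transcript the level was 88.3 RPKM for STAT2, 81.8 for STAT6, 74.1 for STAT3 and 13.4 for STAT5B. At a threshold of 0.1 CPM, 2 of 3 STAT4 receptors and 5 of 12 STAT5 receptors were detected. No paired analysis was possible because there is 1 group.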
